A study of Macaca mulatta with 12 samples.

Results

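The genes described here lie in a neighbouring pair of imprinted domains, IGF2-H19 and KCNQ1: IGF2, H19, ASCL2, KCNQ1, SLC22A18, PHLDA2 and OSBPL5. Every probe set that the platform annotation names for one of these genes was taken, which gave 12 probe sets for 7 genes of 52766 probe sets in all. H19 and OSBPL5 had 3 probe sets each, KCNQ1 had 2, and the other genes had 1. Levels were log2 expression values from rhesus macaque Affymetrix arrays, 1 array for each of 12 samples and 3 arrays for each of 4 cell populations. The fibroblasts were adult skin cells from the back of a male monkey aged 9 years. ORMES-9 is an embryonic stem (ES) cell line described as a homozygous parthenote, at passages 13, 14 and 16 (replicates A, B and C). rPESC-2 is a heterozygous parthenogenetic ES line, at passages 16, 10 and 16. ORMES-22 is an ES line from a blastocyst made by in vitro fertilisation, so that it holds a maternal and a paternal genome, at passages 18, 21 and 19.

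Parthenogenetic lines come from an egg activated without sperm and hold maternal genomes only. For ORMES-9 the labels disagree: the descriptions and the series design give a parthenote, while the source field and the treatment protocol name a fertilised blastocyst. All 3 ES lines are labelled female, and their undifferentiated colonies were picked from feeder layers of mouse embryonic fibroblasts. Each ES group is 1 line, so parental origin cannot be told apart from any other property of that line. Fibroblasts differ from the ES lines in tissue, age, sex and culture at the same time. The series design describes the 3 arrays of a group as biological replicates. P-values here measure only the spread between those arrays, not between lines or animals.

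Imprinted genes are read from 1 parental copy, which is set by DNA methylation laid down in the germ line. In human and mouse, IGF2 is read from the paternal copy and the non-coding RNA H19 from the maternal copy. CTCF binding between them on the unmethylated maternal copy blocks the enhancers from IGF2. In the neighbouring KCNQ1 domain the paternal copy makes the antisense RNA KCNQ1OT1, which silences nearby genes on that copy, so that KCNQ1, CDKN1C, SLC22A18 and PHLDA2 are read mainly from the maternal copy. ASCL2 and OSBPL5 are known as maternally expressed in mouse placenta. These genes are studied above all for growth of the fetus and placenta.

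In the reference gene table of the macaque, all 7 genes lie on chromosome 14, in the order H19, IGF2, ASCL2, KCNQ1, SLC22A18, PHLDA2 and OSBPL5. The stretch from H19 to OSBPL5 holds 33 annotated genes, of which 16 are protein-coding. Of these, INS, C14H11orf21, CDKN1C and CARS1 had no named probe set used here.

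The arrays carried the marks of their labels with some exceptions. Array medians lay between 5.012 and 5.098, and the 42 bacterial control probe sets, which serve as a guide to background, had a median of 3.75 and a 90th percentile of 4.26. SNRPN, a paternally expressed gene of another domain, read 10.34 to 10.66 in fibroblasts, 5.80 to 5.89 in ORMES-9, 5.66 to 5.93 in rPESC-2 and 12.55 to 12.98 in ORMES-22, so ORMES-9 lay beside rPESC-2 in it. Of 7 pluripotency markers measured, 6 were lower in fibroblasts than in the ES lines and NANOG was higher. Between ES lines PRDM14 alone of the 7 was called, higher in ORMES-9 by 1.56 on the log2 scale against ORMES-22 and by 1.56 against rPESC-2. Of 9 fibroblast markers measured, 7 were higher in fibroblasts, and DCN and THY1 were not called. Of all probe sets, 10.5% were called higher and 8.79% lower in fibroblasts than in the mean of the ES lines. ORMES-22 replicate A stood apart: of 12993 genes, 303 exceeded the mean of its sister arrays by 2-fold or more and 172 fell short of it by as much. Member results that it moves across an adjusted p of 0.05 are given with and without it.

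H19, the maternally expressed non-coding RNA, gave the widest spread of the 7 genes. The brightest of its 3 probe sets read 6.30, 6.22 and 6.36 in fibroblasts and 8.02, 7.35 and 10.85 in ORMES-9. It read 8.42, 7.48 and 7.44 in rPESC-2 and 7.99, 7.07 and 6.79 in ORMES-22. All 9 ES arrays lay above all 3 fibroblast arrays, the ES lines overlapped one another, and ORMES-9 replicate C lay above every other array. The group means were 6.29 ± 0.07 in fibroblasts, 8.74 ± 1.86 in ORMES-9, 7.78 ± 0.55 in rPESC-2 and 7.28 ± 0.63 in ORMES-22 (log2, SD, n = 3 each). RNA was measured in bulk, so a smaller number of H19-expressing cells and less H19 per cell cannot be told apart.

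The other H19 probe sets showed the same high array at smaller size. The second, MmugDNA.16224.1.S1_s_at, read 6.34, 6.41 and 6.52 in fibroblasts, 6.95, 6.70 and 8.31 in ORMES-9, 7.11, 6.69 and 7.05 in rPESC-2, and 6.73, 7.02 and 7.02 in ORMES-22. The dimmest read 5.53, 5.44 and 5.58 in fibroblasts, 5.69, 5.82 and 6.45 in ORMES-9, 6.33, 5.82 and 6.12 in rPESC-2, and 6.15, 6.26 and 6.26 in ORMES-22. ORMES-9 replicate C was the highest of the 12 arrays in all 3 H19 probe sets. In Affymetrix naming the ending _s_at marks a probe set that can match more than 1 transcript, and it applies to both of the brighter H19 probe sets.

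**Figure D1:**
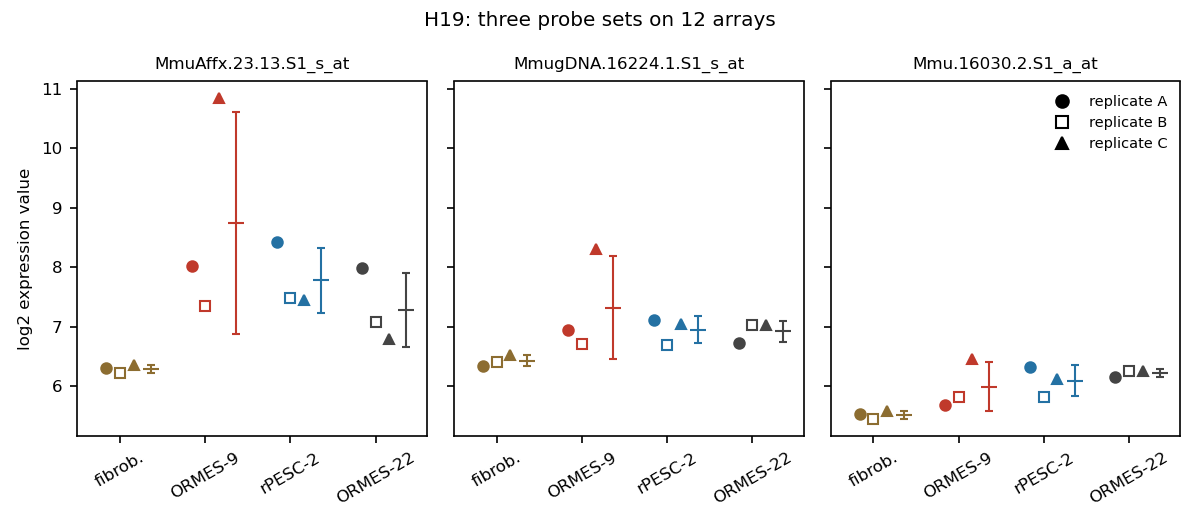
Log2 expression value (vertical axis) of the 3 H19 probe sets in fibroblasts (fibrob.), ORMES-9, rPESC-2 and ORMES-22, with a point for each array and a bar for the mean and SD (n = 3). ORMES-9 replicate C reaches 10.85, 8.31 and 6.45, the highest point of each panel, and the fibroblast arrays are the lowest.

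ORMES-9 replicate C was far from replicates A and B in H19 and close to them in the other members. Against the mean of A and B it was 3.16 higher on the log2 scale (8.95-fold) for the brightest H19 probe set, 1.48 higher for the second and 0.70 higher for the dimmest. Of all 52766 probe sets, 2, 26 and 283 departed at least as far in that array. IGF2, the next gene on the chromosome, differed by 0.23, and 7892 probe sets departed at least as far. The array as a whole was not unusual in number: 85 probe sets exceeded the mean of A and B by 2-fold or more and 7 fell short by as much, while for replicate A, set against B and C, these counts were 82 and 37. In the other ES lines the brightest H19 probe set departed by 0.96 in rPESC-2 replicate A and 1.06 in ORMES-22 replicate A. There 117 and 1029 probe sets departed at least as far. The other H19 probe sets departed by 0.24 and 0.36 in that rPESC-2 array, and by -0.29 and -0.12 in that ORMES-22 array.

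**Figure D2:**
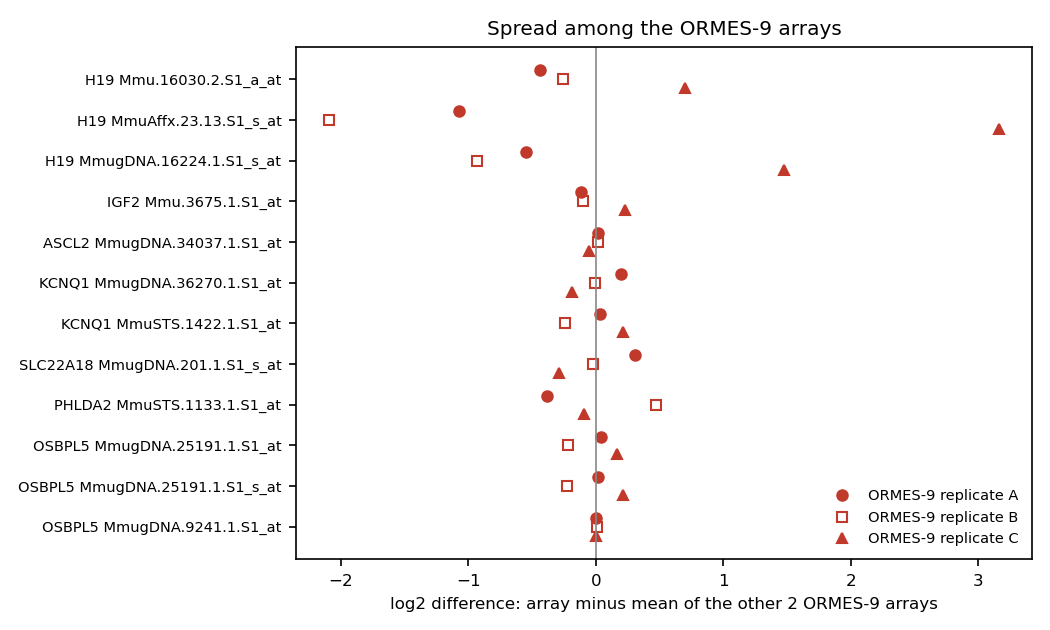
Log2 difference of each ORMES-9 array from the mean of the other 2 ORMES-9 arrays (horizontal axis) for the 12 probe sets. H19 spreads up to 3.16 in replicate C, while IGF2 lies at 0.23 in that array and PHLDA2 departs most among the other genes, at 0.47 in replicate B.

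Markers of other cell types moved with H19 in part. The mean level of 9 trophoblast markers was 5.54, 5.69 and 6.12 in ORMES-9 replicates A, B and C, with GATA3 at 5.59, 5.92 and 7.94. TFAP2A read 6.03, 6.10 and 6.77 and TFAP2C 8.17, 8.93 and 9.17 in the same arrays. HAND1 and KRT18 were also highest in replicate C, while KRT7 was highest in replicate B and CDX2 was level. ELF5 and GCM1 were at 3.99 and 3.74 in replicate C, below the 90th percentile of the bacterial controls, where differences are understated. ORMES-22 replicate C had a trophoblast mean of 6.13 and GATA3 at 8.02, and its brightest H19 probe set read 6.79, the lowest ORMES-22 value. The mean of 7 endoderm markers was 7.86, 7.48 and 7.92 in ORMES-9, 7.86, 7.96 and 8.05 in rPESC-2, and 6.25, 6.47 and 6.80 in ORMES-22. Of these 7 markers, 3 were called higher in ORMES-9 and 4 in rPESC-2 than in ORMES-22. Of all probe sets, 0.946% and 0.769% were called higher in these comparisons, and 0.629% and 0.474% lower. Between the parthenogenetic lines CER1 alone of the 7 was called, lower in ORMES-9 by a difference of -1.19. The mean of 8 mesoderm markers was 6.28, 6.15 and 6.34 in ORMES-9, 6.32, 6.18 and 6.16 in rPESC-2, and 6.27, 6.68 and 6.46 in ORMES-22. Of these 8, ACTC1 alone was called between ES lines, lower in both parthenogenetic lines, by a difference of -2.24 in ORMES-9 and -2.48 in rPESC-2 against ORMES-22. The mean of 9 fibroblast markers was 6.97, 7.01 and 7.30 in ORMES-9, 7.34, 7.14 and 6.86 in rPESC-2, and 7.63, 7.95 and 7.84 in ORMES-22, so it too was highest in replicate C among the ORMES-9 arrays. There LUM read 3.55, 3.58 and 4.61 and TWIST1 5.58, 5.52 and 6.29. TWIST1 was called lower in both parthenogenetic lines, at means of 5.80 in ORMES-9 and 6.67 in rPESC-2 against 8.47 in ORMES-22, and LOX was called lower in rPESC-2, at 4.66 against 6.98 in ORMES-22. The part of such cells in the H19 values was not tested.

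The first question of the series was whether parthenogenetic lines differ from the biparental line. Differences were tested with limma over all 52766 probe sets, with p-values adjusted after Benjamini and Hochberg, and a call required an adjusted p below 0.05 together with a change of 2-fold or more. In ORMES-9 against ORMES-22 limma called 0 of the 12 probe sets, where 1.57% of all probe sets were called (0.946% higher and 0.629% lower), and 1 of the 12 had an unadjusted p under 0.05. In rPESC-2 against ORMES-22 it called 0 of 12, where 1.24% were called (0.769% higher and 0.474% lower), and 3 had an unadjusted p under 0.05. In ORMES-9 against rPESC-2 it called 0 of 12, where 1.23% were called (0.544% higher and 0.688% lower), and 2 had an unadjusted p under 0.05. At these background shares of calls, 0 calls among 12 probe sets is near the background. Of all probe sets, 18.5%, 20.9% and 15.9% had an unadjusted p under 0.05 in these 3 comparisons, in the order given. Both comparisons with ORMES-22 share the same ORMES-22 arrays.

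The intervals of these differences measure the spread of probe set signals between arrays. They do not cover a probe set that responds weakly to its RNA, so they set no limit on the change in RNA. The 95% interval lay within 2-fold in either direction for 10 of 12 probe sets in ORMES-9 against ORMES-22, for 10 in rPESC-2 against ORMES-22 and for 8 in ORMES-9 against rPESC-2. The median difference of the 12 probe sets was -0.13, -0.03 and -0.03 in these 3 comparisons, beside -0.01, -0.02 and 0.01 over all probe sets. The wide intervals belonged to H19 and PHLDA2 and, between the parthenogenetic lines, to 1 KCNQ1 probe set. All intervals use a spread shared by all groups, so the H19 intervals also reflect ORMES-9 replicate C where ORMES-9 is not compared.

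**Figure D3:**
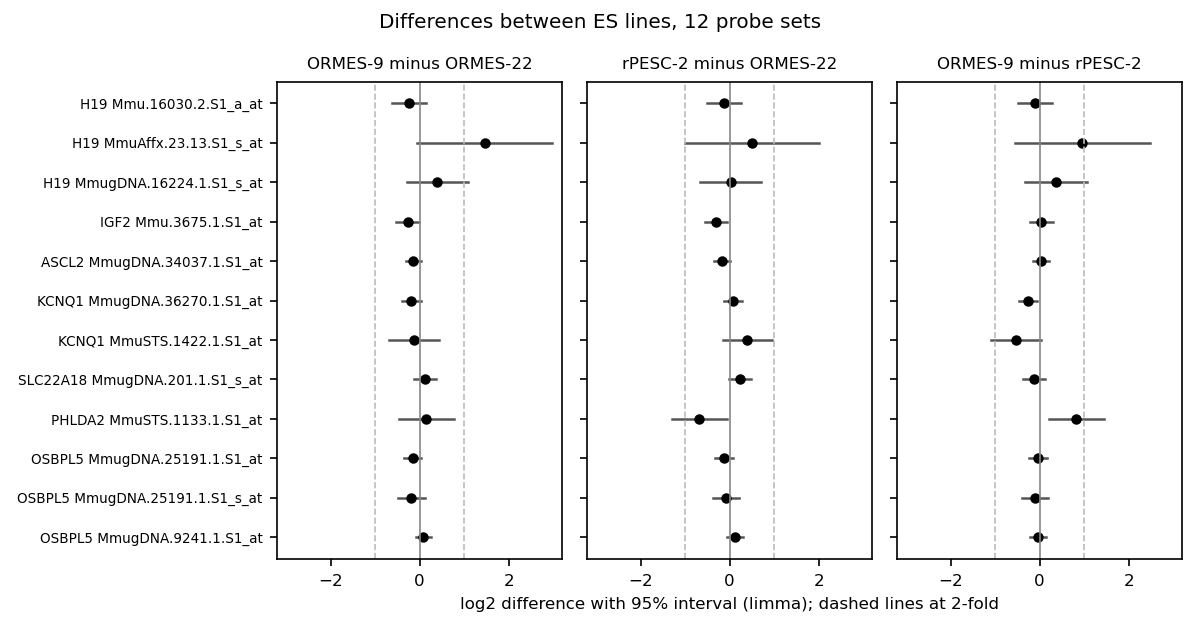
Log2 difference (horizontal axis) of the 12 probe sets between ES lines, ORMES-9 minus ORMES-22, rPESC-2 minus ORMES-22 and ORMES-9 minus rPESC-2, as points with 95% intervals from limma and dashed lines at 2-fold. Most intervals stay inside the dashed lines, and the brightest H19 probe set has the widest, from -0.05 to 2.97 in ORMES-9 minus ORMES-22.

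For the brightest H19 probe set the ES lines could not be separated. ORMES-9 minus ORMES-22 was 1.46 (SE 0.69, 95% interval -0.05 to 2.97, limma adjusted p = 0.29), and without ORMES-9 replicate C it was 0.40 (adjusted p = 0.63). rPESC-2 minus ORMES-22 was 0.50 (SE 0.69, 95% interval -1.01 to 2.01, adjusted p = 0.73). ORMES-9 replicate C is in neither group but widened this interval through the shared spread. Without that array the difference was still 0.50, with an SE of 0.33 (adjusted p = 0.43). The difference ran from 0.18 without rPESC-2 replicate A to 0.85 without ORMES-22 replicate A (adjusted p = 0.93 and 0.50). ORMES-9 minus rPESC-2 was 0.96 (95% interval -0.55 to 2.47, adjusted p = 0.60), and -0.10 without ORMES-9 replicate C (adjusted p = 0.97). The sign between the parthenogenetic lines thus rested on 1 array. The other H19 probe sets differed by -0.23 to 0.40 in the comparisons between ES lines.

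IGF2, the fetal growth factor read from the paternal copy, varied little. Its single probe set read 6.95, 7.05 and 7.06 in fibroblasts, 7.07, 7.09 and 7.31 in ORMES-9, 7.23, 6.88 and 7.23 in rPESC-2, and 7.23, 7.55 and 7.48 in ORMES-22. The 12 arrays spanned 0.67 on the log2 scale, ORMES-22 replicates B and C were the highest arrays, and ORMES-22 replicate A lay among the parthenogenetic arrays. ORMES-9 minus ORMES-22 was -0.26 (SE 0.12, 95% interval -0.52 to -0.01, limma adjusted p = 0.26). rPESC-2 minus ORMES-22 was -0.31 (SE 0.12, 95% interval -0.56 to -0.05, adjusted p = 0.17). Without ORMES-22 replicate A these differences were -0.36 (adjusted p = 0.079) and -0.40 (adjusted p = 0.041), so the rPESC-2 difference then had an adjusted p under 0.05, at less than 2-fold. Over all omissions of 1 array the rPESC-2 difference ran from -0.40 to -0.19, the smallest without rPESC-2 replicate B. ORMES-9 minus rPESC-2 was 0.04 (95% interval -0.21 to 0.30, adjusted p = 0.93). The lower ends of the intervals against ORMES-22 correspond to ratios of 0.698 and 0.677, so in the fit of all 12 arrays a 2-fold lower signal lay outside both intervals. That holds for the signal of this probe set only. How far its signal follows IGF2 RNA was not tested.

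The genes of the KCNQ1 domain are taken next, in chromosome order. ASCL2, a transcription factor needed for trophoblast in mouse, had a dim signal. It read 4.43, 4.66 and 4.52 in fibroblasts, 5.08, 5.08 and 5.04 in ORMES-9, 5.08, 4.97 and 5.03 in rPESC-2, and 5.15, 5.32 and 5.14 in ORMES-22. All ES arrays lay above the fibroblast arrays, which were just above the 90th percentile of the bacterial controls. Both parthenogenetic lines lay below all ORMES-22 arrays, by 0.14 in ORMES-9 and 0.18 in rPESC-2, without passing the test (limma adjusted p = 0.42 and 0.24).

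KCNQ1, a voltage-gated potassium channel, had a pair of probe sets. The brighter, MmugDNA.36270.1.S1_at, read 5.80, 5.80 and 5.99 in fibroblasts, 6.74, 6.59 and 6.47 in ORMES-9, 6.92, 6.79 and 6.89 in rPESC-2, and 6.87, 6.85 and 6.64 in ORMES-22. MmuSTS.1422.1.S1_at read 4.99, 4.98 and 5.25 in fibroblasts, 5.97, 5.79 and 6.09 in ORMES-9, 6.55, 6.57 and 6.32 in rPESC-2, and 6.83, 5.97 and 5.44 in ORMES-22. The ORMES-9 arrays lay below all rPESC-2 arrays on both probe sets. That difference was -0.27 (SE 0.09, limma adjusted p = 0.16) on the brighter probe set and -0.53 (SE 0.26, adjusted p = 0.35) on the other, so neither passed. Without ORMES-22 replicate A the adjusted p values were 0.13 and 0.037, with both differences still less than 2-fold. ORMES-22 replicate A held the highest value of MmuSTS.1422.1.S1_at and widened its group. Without that array rPESC-2 was 0.77 above ORMES-22 (adjusted p = 0.0062), less than 2-fold, against 0.40 with it (adjusted p = 0.41).

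SLC22A18, a membrane transporter, varied little within groups (SD 0.08 to 0.20). It read 8.37, 8.14 and 8.35 in fibroblasts, 6.75, 6.54 and 6.36 in ORMES-9, 6.77, 6.49 and 6.74 in rPESC-2, and 6.52, 6.37 and 6.40 in ORMES-22. The fibroblasts were far above every ES array, and the ES lines overlapped. Among ES lines the differences were 0.12 for ORMES-9 and 0.23 for rPESC-2 against ORMES-22 (limma adjusted p = 0.67 and 0.27).

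PHLDA2, which restrains placental growth in mouse, varied most among ES cultures after H19. It read 10.76, 10.64 and 10.64 in fibroblasts, 8.97, 9.53 and 9.16 in ORMES-9, 8.73, 8.48 and 7.97 in rPESC-2, and 8.46, 9.77 and 8.98 in ORMES-22. All ORMES-9 arrays lay above all rPESC-2 arrays, while ORMES-22 spanned both lines. ORMES-9 minus rPESC-2 was 0.82 (SE 0.28, 95% interval 0.21 to 1.44), and it did not pass after adjustment (limma adjusted p = 0.14). Without ORMES-22 replicate A or B, which changes only the estimate of spread here, its adjusted p was 0.04 or 0.038, at less than 2-fold. rPESC-2 minus ORMES-22 was -0.68 (95% interval -1.29 to -0.06, adjusted p = 0.20), and ORMES-9 minus ORMES-22 was 0.15 (95% interval -0.47 to 0.77, adjusted p = 0.85). Without ORMES-22 replicate A these were -0.98 (adjusted p = 0.02, just short of 2-fold) and -0.16 (adjusted p = 0.78), and without replicate B they were -0.33 (adjusted p = 0.56) and 0.50.

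OSBPL5, an oxysterol-binding protein at the far end of the domain, was nearly level. Its brightest probe set, MmugDNA.25191.1.S1_at, read 7.63, 7.77 and 7.89 in fibroblasts, 7.91, 7.74 and 8.0 in ORMES-9, 7.89, 7.90 and 7.96 in rPESC-2, and 7.96, 8.14 and 8.02 in ORMES-22. The groups lay within 0.28 of one another in the mean. Its other probe sets had group means of 6.80 to 7.27 (MmugDNA.25191.1.S1_s_at) and 6.25 to 6.46 (MmugDNA.9241.1.S1_at). Between ES lines no OSBPL5 difference exceeded 0.19 on the log2 scale. MmugDNA.9241.1.S1_at was higher in all ORMES-9 arrays than in all ORMES-22 arrays, by 0.08 (limma adjusted p = 0.66).

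**Figure D4:**
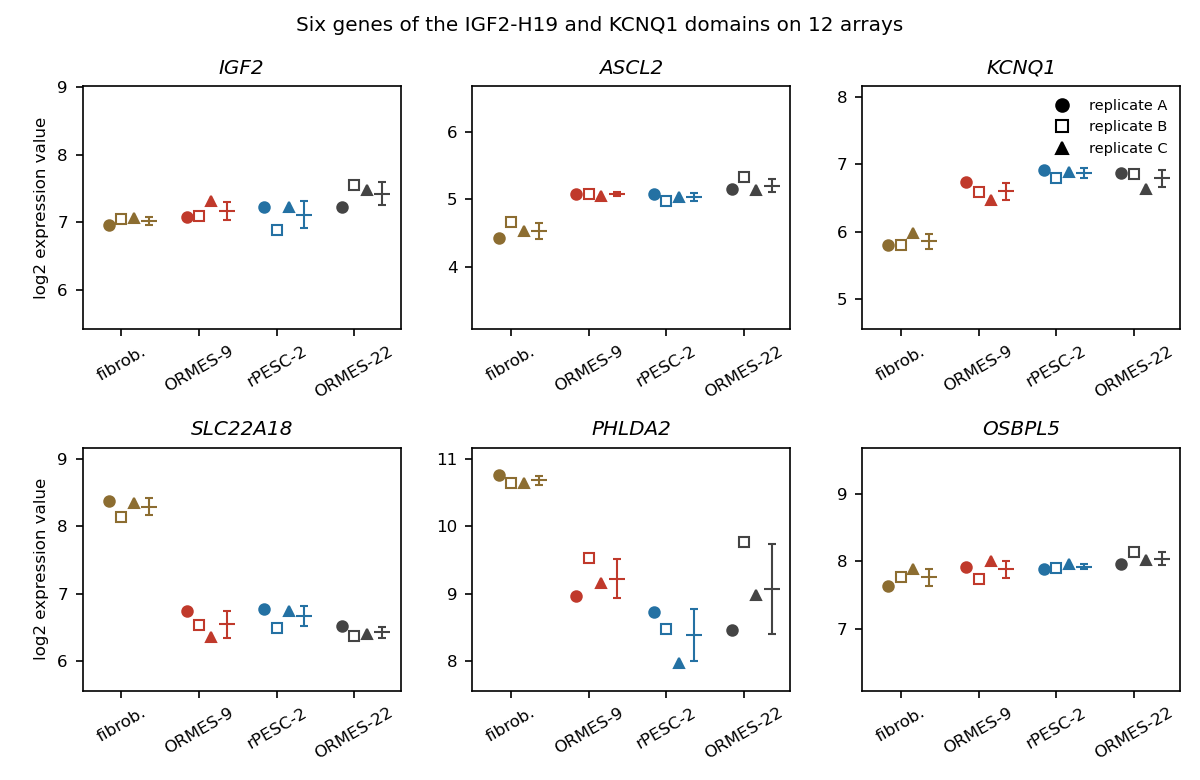
Log2 expression value (vertical axis, each panel spanning the same number of log2 units) of IGF2, ASCL2, KCNQ1, SLC22A18, PHLDA2 and OSBPL5 in fibroblasts (fibrob.), ORMES-9, rPESC-2 and ORMES-22, with a point per array and a bar for the mean and SD (n = 3), from the brightest probe set of each gene. SLC22A18 and PHLDA2 stand above the ES lines in fibroblasts, at means of 8.29 and 10.68, and IGF2 and OSBPL5 are nearly level.

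The second question was how the somatic fibroblasts compare with the ES lines. SLC22A18 and PHLDA2 were called higher in fibroblasts and 1 KCNQ1 probe set lower, both against the ES mean and against ORMES-22. Of the 3 H19 probe sets 1 was called lower, against the ES mean only. IGF2, ASCL2 and OSBPL5 were not called. Against the mean of the 3 ES lines 4 of 12 probe sets were called, where 19.3% of all probe sets were called, 2 of them higher (background 10.5%) and 2 lower (background 8.79%). Against ORMES-22 alone 3 of 12 were called, where 18.8% of all were called, 2 of them higher (background 10.8%) and 1 lower (background 8.04%). These shares are near the background of a comparison in which much of the array differs, so the values per gene carry the description. The median difference of the members was -0.47 against the ES mean and -0.49 against ORMES-22, beside -0.11 and -0.13 over all probe sets. The 2 comparisons share the fibroblast and the ORMES-22 arrays.

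SLC22A18 was 1.74 higher in fibroblasts than in the ES mean on the log2 scale (3.34-fold, SE 0.09, limma adjusted p = 7.2e-09), at 8.29 ± 0.13 in fibroblasts against 6.43 ± 0.08 in ORMES-22 (SD, n = 3 each). PHLDA2 was 1.79 higher (3.45-fold, SE 0.23, adjusted p = 2.6e-05), at 10.68 ± 0.07 in fibroblasts against 9.07 ± 0.66 in ORMES-22. Against ORMES-22 alone the increases were 3.62-fold for SLC22A18 and 3.06-fold for PHLDA2 (adjusted p = 3.9e-08 and 0.00042). No fibroblast array overlapped an ES array in either gene. The SLC22A18 probe set carries the ending _s_at.

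H19 was 1.64 lower in fibroblasts than in the ES mean on its brightest probe set (3.12-fold, SE 0.56, limma adjusted p = 0.024). Without ORMES-9 replicate C the difference was -1.29 (adjusted p = 0.0018). Leaving out any 1 fibroblast array ended the call, with differences of -1.65, -1.61 and -1.68 (adjusted p = 0.072, 0.075 and 0.064 without replicates A, B and C). The other H19 probe sets were 0.64 and 0.58 lower (adjusted p = 0.049 and 0.0039), less than 2-fold. The mean of the 3 probe sets was 0.96 lower (adjusted p = 0.014), also less than 2-fold. Against ORMES-22 alone the brightest probe set differed by -0.99 (adjusted p = 0.24), with all 3 fibroblast arrays below all 3 ORMES-22 arrays. Without ORMES-9 replicate C, which changes only the estimate of spread here, its adjusted p was 0.025, at less than 2-fold. Leaving out replicate A of ORMES-22 gave -0.64 (adjusted p = 0.49).

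KCNQ1 was lower in fibroblasts on both probe sets, on either side of the 2-fold limit. MmuSTS.1422.1.S1_at fell by 1.10 against the ES mean (SE 0.21, limma adjusted p = 0.00069) and by 1.01 against ORMES-22 (SE 0.26, adjusted p = 0.0056). Without ORMES-22 replicate A these differences were -0.98 and -0.64, below 2-fold. The call against ORMES-22 also ended without fibroblast replicate A (-0.97) or B (-0.96). The brighter probe set differed by -0.89 against the ES mean and -0.93 against ORMES-22 (adjusted p = 7.3e-07 and 4.4e-06), short of 2-fold.

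The remaining members differed by less than 2-fold. ASCL2 was -0.56 against the ES mean (limma adjusted p = 1e-05) and -0.67 against ORMES-22 (adjusted p = 1.8e-05). IGF2 was -0.21 against the ES mean (adjusted p = 0.076, and 0.031 when replicate A of ORMES-22 is left out) and -0.40 against ORMES-22 (95% interval -0.66 to -0.14, adjusted p = 0.012). The 3 OSBPL5 probe sets were -0.38 to -0.16 against the ES mean. With no minimum fold, 10 of 12 probe sets had an adjusted p under 0.05 against the ES mean and 9 against ORMES-22, while 60.3% and 55.7% of all probe sets did.

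Genes in and around the 2 domains were taken as a list of 21 neighbours, of which 13 were measured. limma called 0 of these 13 in each comparison between ES lines, with unadjusted p under 0.05 for 2 in ORMES-9 against ORMES-22, 4 in rPESC-2 against ORMES-22 and 1 in ORMES-9 against rPESC-2. The shares of all probe sets with such a p were 18.5%, 20.9% and 15.9%, in the same order, and the shares called were 1.57%, 1.24% and 1.23%. CD81, a tetraspanin between ASCL2 and KCNQ1, averaged 0.14 lower in ORMES-9 and 0.12 lower in rPESC-2 than in ORMES-22. Neither difference passed the test (limma adjusted p = 0.47 in both). Other uncalled neighbours differed by more in the same comparisons, among them TRPM5 (-0.29 and -0.25), TSPAN32 (-0.21 and -0.28), LSP1 (-0.17 and -0.24) and ZNF195 (0.20 and 0.39). In fibroblasts against the ES mean, 1 of 13 rose, 2 fell and 10 were not called, where 10.5% of all probe sets were called higher and 8.79% lower. LSP1, an actin-binding protein of white blood cells, rose by 1.97 (SE 0.07, adjusted p = 2.8e-10). ZNF195, a zinc finger gene, fell by 2.91 (SE 0.12, adjusted p = 5.8e-10), and CTSD, a lysosomal protease, fell by 1.26 (SE 0.09, adjusted p = 1.3e-07). The median difference of the list was -0.15, equal to that of all genes. KCNQ1OT1 and CDKN1C were not analysed here.

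The IGF pathway holds the ligands IGF1 and IGF2, the receptors IGF1R and IGF2R, the insulin receptor substrates, binding proteins that carry the ligands, and IGF2BP proteins that bind IGF2 mRNA. Of 18 genes listed beside IGF2, 16 were measured. The ligand IGF1 was dim, at 4.05 to 4.68 over the 12 arrays. On their brightest probe sets the receptor IGF1R lay between 7.83 and 8.61 and IGF2R between 9.47 and 10.19. There IGF2R was 0.39 higher in fibroblasts than in the ES mean (limma adjusted p = 0.0033), and its other probe set was 0.90 higher. In ORMES-9 minus rPESC-2 the dimmer IGF1R probe sets differed by -0.60 and 0.00. No probe set of either receptor was called in any of the 5 comparisons.

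Between ES lines, the IGF list gave 1 call in each of 2 comparisons. In ORMES-9 against ORMES-22, 1 of 16 rose and 0 fell. IRS1, a docking protein below the IGF1 receptor, read 6.18, 6.16 and 6.17 in ORMES-9, 5.25, 5.40 and 5.14 in rPESC-2, and 4.95, 5.07 and 5.04 in ORMES-22. ORMES-9 lay above both other lines with no overlap, 1.15 above ORMES-22 (SE 0.08, limma adjusted p = 7.4e-06). A second IRS1 probe set differed by 0.45 and was not called. In ORMES-9 against rPESC-2, 1 of 16 fell: IGFBP2, which binds IGF2, read 11.69, 11.24 and 11.84 in ORMES-9, against 12.36, 13.12 and 12.76 in rPESC-2, a difference of -1.16 (SE 0.29, adjusted p = 0.038). The IGFBP2 call ended under 11 alternatives, among them each omission of 1 fibroblast or ORMES-9 array and that of rPESC-2 replicate B or C. In rPESC-2 against ORMES-22, limma called 0 of 16, with 6 at an unadjusted p under 0.05, beside 20.9% of all probe sets.

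In fibroblasts against the ES mean, 6 of the 16 IGF genes rose, 3 fell and 7 were not called. Of all probe sets, 10.5% were called higher and 8.79% lower. The list median was 0.33, beside -0.15 over all genes. The increases were mostly binding proteins. IGFBP5 read 11.20, 11.39 and 11.60 in fibroblasts and no more than 5.98 in any ES array, a difference of 5.98 in the means (SE 0.13, limma adjusted p = 1.6e-12). IGFBP3, IGFBP6, IGFBP4 and IGFBP2 rose by 4.69, 3.71, 3.09 and 1.12, and the receptor substrate IRS2 by 1.26. All 3 IGF2 mRNA-binding genes fell. IGF2BP3 read 7.30, 7.05 and 7.08 in fibroblasts and 11.55 to 12.42 in ES arrays, a fall of 5.01 (SE 0.12, adjusted p = 2.9e-12), and IGF2BP1 fell by 3.40. IGF2BP2 fell by 1.05, and leaving out fibroblast replicate B or C or ORMES-22 replicate B brought it below 2-fold (-0.98, -1.0 and -0.96). IGFBP7 was not called on its brightest probe set (0.56), while another of its probe sets differed by 5.63.

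**Figure D5:**
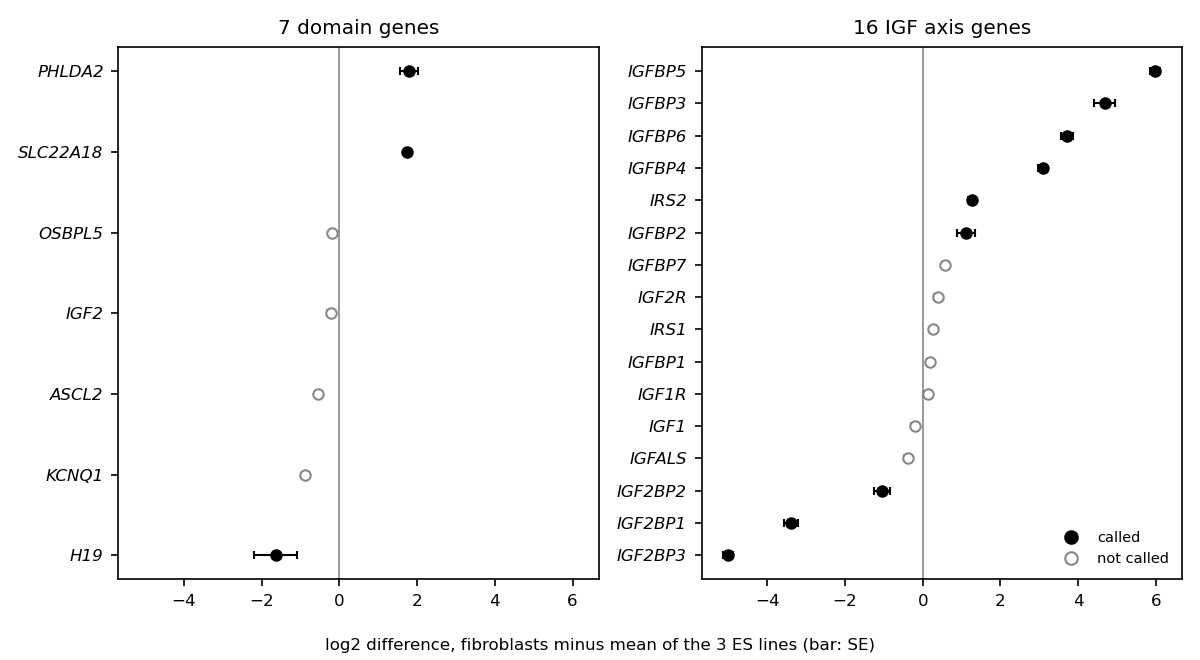
Log2 difference of fibroblasts minus the mean of the 3 ES lines (horizontal axis, bars are SE from limma) for the 7 domain genes and 16 IGF pathway genes, each by its brightest probe set, with filled points for called genes. PHLDA2 and SLC22A18 lie at 1.79 and 1.74 and IGF2 at -0.21, while IGFBP5 reaches 5.98 and IGF2BP3 reaches -5.01.

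Partner genes of the domains were listed in 2 further groups. Of 6 genes of the CTCF and cohesin group, which hold the chromatin loops at imprinted domains, 5 were measured and CTCF was not among them. In both fibroblast comparisons 1 of the 5 rose, 4 were not called and all 5 had an unadjusted p under 0.05. So did 64.2% of all probe sets against the ES mean and 60.8% against ORMES-22. Called higher were 10.5% of all probe sets against the ES mean and 10.8% against ORMES-22. The gene called was STAG1, a cohesin subunit, which read 5.12 to 5.30 in fibroblasts and 3.71 to 3.85 in the ES arrays (limma adjusted p = 6.3e-10 against the ES mean). The ES values lay below the 90th percentile of the bacterial controls, so the size of this difference is not given. limma called none of the 5 in the comparisons between ES lines, with 1 at an unadjusted p under 0.05 in ORMES-9 against ORMES-22, 0 in rPESC-2 against ORMES-22 and 1 in ORMES-9 against rPESC-2. Of 5 KCNE genes, which encode partner subunits of the KCNQ1 channel, 3 were measured at array means of 3.94 to 4.26, at the level of the bacterial controls. None of the 3 was called in any comparison, with 2 at an unadjusted p under 0.05 in fibroblasts against the ES mean and 2 against ORMES-22, and 0 between ES lines. Between ES lines, 15.9% to 20.9% of all probe sets had such a p, and 1.23% to 1.57% were called.

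For the members whose brightest probe set was called, the genes with the most similar pattern were sought among 12992 genes, by the root mean square difference of log2 values over the 12 arrays after centring each gene. SLC22A18 was closest to KCTD18 and OLFML2B (0.12 each) and ABHD6 (0.14), whose means were also highest in fibroblasts. PHLDA2 was closest to S100A11 (0.26), ATG4A (0.29) and KCNMB1 (0.29), whose rPESC-2 means were also the lowest of the 4 groups. Since these genes were chosen by likeness over the same arrays, the shared order of group means follows from the choice. H19 had no close match: GIP, TESMIN and ST8SIA4 came nearest, each at 0.82.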

How the data were processed

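Total RNA was labelled with biotin from an oligo-dT primer by a one-cycle protocol and hybridised to 1 array per sample, per the labels' protocols. The authors deposited 1 log2 value for each probe set and array, and the submitters' processing notes name RMA as the method. The log2 scale was taken from the values, and the RMA version was not given in the sources used here. RMA makes arrays alike in distribution, which reduces a shift shared by most genes and understates changes near background. Of 52865 features, 99 controls were left out. No detection calls were used.

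Gene symbols came from the platform annotation (24956 with 1 symbol, 361 with several, 27449 with none), and a RefSeq gene table of T2T-MMU8v2.0, not the build of the array, gave only names, chromosome and gene order. A gene was represented by its brightest probe set, by the mean of the 12 arrays, which gave 12993 genes without provisional symbols. limma 3.58.1 in R 4.3.3 was fitted with lmFit and eBayes on group means over all 12 arrays with no covariate (degrees of freedom: 8 residual, 3.69 prior). Two-sided p-values were given Benjamini-Hochberg adjustment over all 52766 probe sets. The fit was tested on simulated data with equal group means and, for each probe set, 1 normal spread pooled over the groups. Changes of 1, 2 and 3 on the log2 scale were then given to 67, 67 and 66 probe sets. Of true changes of 1 on the log2 scale, which equals the 2-fold minimum, 43.3% to 46.3% were called between ES lines. In the fibroblast comparisons 34.3% against ORMES-22 and 47.8% against the ES mean were called. Of true changes of 2, at least 98.5% were called. These shares hold for the simulated setting. In the data, spreads differed between groups, and far more probe sets had an adjusted p under 0.05 in the fibroblast comparisons (55.7% and 60.3%). No column belonged to another series. The number of arrays limits the precision.

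Members, lists, markers, comparisons and the rule for named genes were chosen with earlier results of these data known. The rule named every member probe set, every called gene of the neighbour, IGF, CTCF and KCNE lists, and the 3 genes most like each called member. Alternatives were the samples fitted, the replicate letter as a block, normalization, a filter on dim probe sets, moderation, array weights, the minimum fold, the mean of a gene's probe sets and each array left out. Those for genes of the lists were added after seeing the data. Replicate letters were shared between groups, and correlations of same-letter deviations from group means ran from -0.306 to 0.265, not all over 0.1, so the letters were taken only to number the arrays.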

Additional observations from a re-analysis of the deposited data

How the results depend on the processing

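Of 1211 values of the members recomputed under alternatives, 1180 kept their direction and their side of the threshold, 20 turned in sign and 11 lost a call. The count of called members stayed at 0 in the 3 comparisons between ES lines under every alternative, and with the replicate block it stayed at 0 in these, 3 in fibroblasts against ORMES-22 and 4 against the ES mean. With no minimum fold the last 2 counts were 9 and 10, and with each array left out they ran from 2 to 3 and from 3 to 4. The replicate block changed no member's call and ended that of IGFBP2 (adjusted p = 0.071). The KCNQ1 call of MmuSTS.1422.1.S1_at against ORMES-22 also ended with array medians subtracted (-0.96), quantile normalization (-0.98) or array weights (-0.81), and the H19 call ended with the mean of its probe sets (-0.96). Quantile normalization turned H19 MmugDNA.16224.1.S1_s_at in rPESC-2 minus ORMES-22 to -0.05, and array weights turned KCNQ1 MmuSTS.1422.1.S1_at in ORMES-9 minus ORMES-22 to 0.06. The cause was not tested.

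Uncalled differences that turned in sign when 1 array was left out had these ranges. In ORMES-9 minus ORMES-22 they were PHLDA2 (-0.16 to 0.50), KCNQ1 MmuSTS.1422.1.S1_at (-0.45 to 0.24) and H19 MmugDNA.16224.1.S1_s_at (-0.10 to 0.71). In rPESC-2 minus ORMES-22 they were H19 MmugDNA.16224.1.S1_s_at (-0.07 to 0.16), the dimmest H19 probe set (-0.25 to 0.00) and OSBPL5 MmugDNA.25191.1.S1_s_at (-0.23 to 0.07). In ORMES-9 minus rPESC-2 they were IGF2 (-0.07 to 0.10), the H19 probe sets, brightest (-0.10 to 1.65), MmugDNA.16224.1.S1_s_at (-0.12 to 0.68) and dimmest (-0.33 to 0.05), and OSBPL5 MmugDNA.25191.1.S1_at (-0.10 to 0.03), MmugDNA.25191.1.S1_s_at (-0.25 to 0.04) and MmugDNA.9241.1.S1_at (-0.07 to 0.01). Without ORMES-22 replicate A, the adjusted p passed under 0.05 in rPESC-2 minus ORMES-22 for IGF2, PHLDA2 and KCNQ1 MmuSTS.1422.1.S1_at in ORMES-9 minus rPESC-2 for the last 2, and in fibroblasts minus the ES mean for IGF2, all short of 2-fold. Counts over all probe sets moved more: without ORMES-22 replicate A, 1284 were called in ORMES-9 and 1493 in rPESC-2 against ORMES-22, beside 831 and 656 with it, and 566 and 332 when only the groups compared were fitted. Over the same alternatives, 515 values of called list genes gave 14 lost calls, all of IGFBP2 or IGF2BP2. ASCL2, the KCNE genes and STAG1 in ES cells lay near background, where differences are understated.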

Other observations

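Because H19 was high in a single ORMES-9 array, the genes highest in ORMES-9 replicate C against the mean of replicates A and B were listed, chosen after their values were seen and with no test. PYROXD1 came first at 3.18 on the log2 scale and H19 second at 3.16. FOS, EGR4 and EGR2, immediate early genes that respond to serum and stress, were 2.55, 2.50 and 2.03 higher, with FOS at 7.04, 7.61 and 9.88 in replicates A, B and C. EDN1, which encodes a secreted peptide, read 5.02, 7.02 and 8.25. The transcription factor GATA3 and the calcium-dependent membrane protein ANXA1 were 2.18 higher each. In all, 29 of 12993 genes were at least 2-fold higher in replicate C and 1 was at least 2-fold lower. Whether these genes and H19 moved together for 1 reason was not tested.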
